A study of Mus musculus with 15 samples.

Results

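Interferon-stimulated genes were followed as a set of 47 genes across LL2 WT, 3 *KEAP1* KO clones and 1 *NRF2* KO clone. The set was chosen by gene symbol and holds interferon receptors and signaling factors, sensors of viral nucleic acid and classical interferon-induced effectors. All 47 genes were found among the 35880 gene symbols of the expression table, 1 of them (*Ddx58*) under the newer symbol *Rigi*. LL2/Luc2 is a luciferase-marked line of the mouse Lewis lung carcinoma. The parental line (LL2 WT) was compared with clones derived from single cells after CRISPR editing of *Keap1* (*KEAP1* KO #1, #2 and #3) or of *Nfe2l2*, the gene of NRF2 (*NRF2* KO). All 5 lines grew without drug or added interferon in the same complete medium, and each was sequenced in 3 biologic replicates (15 samples). *NRF2* KO rests on 1 clone, and each *KEAP1* KO line is also 1 clone, so a difference between lines cannot be told apart from a difference between founder cells.

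Interferons are secreted in response to viral or endogenous nucleic acid and signal through paired surface receptors to JAK kinases. These phosphorylate STAT proteins, which enter the nucleus alone or with IRF9 and switch on interferon-stimulated genes, many of which carry an interferon-stimulated response element (ISRE) or a gamma-activated site (GAS) near the start. Tumor cells often keep a low, tonic expression of these genes without any added interferon. KEAP1 is the adaptor that targets NRF2 for degradation, and NRF2 itself binds antioxidant response elements (ARE).

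Expression is given in CPM, read counts scaled to a common library total, with replicates 1, 2 and 3 in this order. Differences are log2 fold changes on log2(CPM + 0.1), tested with limma over the 14652 genes whose CPM summed to 3 or more. A gene passed the test at a Benjamini-Hochberg adjusted p under 0.05, and it was called if its absolute log2 fold change was also over 1. Of the 47 genes, 38 entered the test and 9 were removed as too low: *Zbp1*, *Oas1a*, *Oas2*, *Oasl1*, *Oasl2*, *Ifit1*, *Ifit3b*, *Mx2* and *Ifi44*. None of these 9 exceeded 0.576 CPM in any sample. In a bulk sample, fewer expressing cells and less RNA per cell cannot be told apart.

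The edited gene *Keap1* averaged 23.0 CPM (LL2 WT), 11.8 CPM (*KEAP1* KO #1), 5.53 CPM (*KEAP1* KO #2) and 5.58 CPM (*KEAP1* KO #3). *Nfe2l2* averaged 186 CPM (LL2 WT) and 119 CPM (*NRF2* KO), but was as low in the *KEAP1* KO clones, at 96.4 to 123 CPM, so its RNA does not mark the *NRF2* KO line. The NRF2 target *Nqo1* averaged 30.3 CPM (LL2 WT), between 276 and 488 CPM in the 3 clones, and 9.82 CPM (*NRF2* KO), the order that the labels imply. The number of reads of each sample is not in the expression table, but the spacing of the lowest values placed the depth of the samples between 0.468 (*KEAP1* KO #3 replicate 1) and 1.48 (*NRF2* KO replicate 2) of their mean. In every line replicates 1 and 2 were closer to each other than to replicate 3. Replicates 1 and 2 differed by a median of 0.0752 to 0.201 on the log2 scale, and either of them differed from replicate 3 by 0.192 to 0.428. The gap was small in *KEAP1* KO #1, at 0.164 against 0.192 and 0.235. Of the 38 tested interferon genes, replicate 3 was the highest of the 3 samples for 25 (LL2 WT), 23 (*KEAP1* KO #1), 33 (*KEAP1* KO #2), 33 (*KEAP1* KO #3) and 27 (*NRF2* KO). Over all genes tested the share with replicate 3 highest was 41.6% to 56.0% in the 5 lines. The epithelial keratins *Krt8* and *Krt18* were abundant in these cells, while *Epcam* and *Cdh1* stayed under 0.1 CPM. Of 10 leukocyte markers, *Adgre1* and *Ncr1* were at 0 in all samples, and *Ptprc* reached at most 0.192 CPM. The summed level, carried mainly by *Cd68*, was 2.25 to 4.85 CPM (LL2 WT), 5.48 to 9.76 CPM (*KEAP1* KO #1), 10.07 to 23.4 CPM (*KEAP1* KO #2), 14.9 to 37.8 CPM (*KEAP1* KO #3) and 2.25 to 3.66 CPM (*NRF2* KO).

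Promoter sequences place the genes in their regulatory context. In RefSeq (GRCm38.p6), 38 of the 47 genes had a promoter entry covering 250 bases before and 50 bases after the start, with 46 promoters in all, and *Usp18*, *Dhx58*, *Zbp1*, *Oas2*, *Mx1*, *Mx2*, *Rtp4*, *Parp14* and *Ifi27* had none. Each was searched on both strands for the ISRE core (GAAA, a pair of any bases and GAAA again), the GAS core TTCNNNGAA and the ARE core TGACNNNGC. The ISRE core was found in 18 of these 46 promoters (39.1%) and in 3.44% of all 32851 promoters of the same length. The GAS core was found in 14 (30.4%, against 8.298% of all) and the ARE core in 5 (10.9%, against 12.4% of all). A match describes the letters of the window and does not show a bound site. The 250 bases upstream of the start are printed for 5 genes as examples: *Isg15* and *Ifit3*, which were lower in *KEAP1* KO #2 and #3, *Gbp2* and *Rsad2*, which were higher in all 3 clones, and *Ifngr1*, which was lower in all 3 clones. Capitals mark every match to one of the 3 cores, read 5′ to 3′ on the strand of the gene.
Isg15 (chr4:156200819-156201068, minus strand): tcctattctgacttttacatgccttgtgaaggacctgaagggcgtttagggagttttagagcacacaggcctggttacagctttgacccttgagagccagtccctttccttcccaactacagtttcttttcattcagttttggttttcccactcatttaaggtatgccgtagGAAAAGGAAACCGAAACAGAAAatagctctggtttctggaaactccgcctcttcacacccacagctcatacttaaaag
Ifit3 (chr19:34583279-34583528, plus strand): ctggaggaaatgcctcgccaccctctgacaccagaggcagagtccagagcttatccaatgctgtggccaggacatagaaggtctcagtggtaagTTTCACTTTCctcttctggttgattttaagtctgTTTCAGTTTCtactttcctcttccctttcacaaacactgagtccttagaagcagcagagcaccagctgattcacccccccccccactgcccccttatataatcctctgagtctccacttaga
Gbp2 (chr3:142620413-142620662, plus strand): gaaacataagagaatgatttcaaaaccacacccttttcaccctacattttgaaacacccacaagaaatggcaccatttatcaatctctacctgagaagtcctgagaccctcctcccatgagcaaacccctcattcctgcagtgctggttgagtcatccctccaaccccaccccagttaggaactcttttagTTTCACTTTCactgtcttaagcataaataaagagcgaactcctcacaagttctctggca
Rsad2 (chr12:26456453-26456702, minus strand): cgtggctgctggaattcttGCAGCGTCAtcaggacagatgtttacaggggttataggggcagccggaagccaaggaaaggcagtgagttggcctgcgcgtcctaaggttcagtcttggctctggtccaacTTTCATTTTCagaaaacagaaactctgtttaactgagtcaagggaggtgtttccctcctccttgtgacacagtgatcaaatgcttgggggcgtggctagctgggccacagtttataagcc
Ifngr1 (chr10:19591699-19591948, plus strand): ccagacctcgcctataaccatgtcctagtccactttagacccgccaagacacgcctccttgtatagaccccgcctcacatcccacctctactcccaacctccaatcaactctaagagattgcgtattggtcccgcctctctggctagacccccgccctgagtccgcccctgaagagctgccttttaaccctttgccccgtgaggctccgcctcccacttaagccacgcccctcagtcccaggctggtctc
*Isg15* held 3 overlapping ISRE cores, *Ifit3* held 2 and *Gbp2* held 1. *Rsad2* held an ISRE core together with an ARE core farther upstream, and the window of *Ifngr1* held none of the 3 cores. Genes with an ISRE core thus stood among both those that were lower and those that were higher in the clones. Other lower genes, not printed, differed in their promoter entries. *Ifitm2* held 1 ISRE core, and *Ifitm3* held 2 together with a GAS core. *Ifit2* and *Socs3* held a GAS core alone, and *Jak1* and *Irf3* held none of the 3 cores.

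Across the set, more genes were lower than higher in *KEAP1* KO #2 and #3. In *KEAP1* KO #2, 12 of the 38 genes were called against LL2 WT, 3 higher and 9 lower, where 13.7% of all genes tested were called (5.94% higher and 7.75% lower). In *KEAP1* KO #3, 13 were called, 3 higher and 10 lower, against 13.4% of all genes (6.09% higher and 7.34% lower). *KEAP1* KO #1 had 4 calls, 3 higher and 1 lower, against 8.54% of all genes (4.55% higher and 3.99% lower). The count in *KEAP1* KO #1 was 8 (3 higher and 5 lower) without LL2 WT replicate 2, and 7 (3 higher and 4 lower) with CPM rescaled by the median ratio, which moved the median of all genes in this clone from 0.11 to 0.01. The *NRF2* KO line had no call among the 38 genes, and none passed the limma test, although 5 showed an unadjusted p under 0.05, as did 11.2% of all genes. In this line 0.464% of all genes were called (0.0887% higher and 0.375% lower), and 0.130% passed as higher and 0.491% as lower. The median log2 fold change of the 38 genes was −0.13 for *KEAP1* KO #1 (all genes 0.11), −0.50 for #2 (all genes 0.03), −0.67 for #3 (all genes 0.02) and −0.12 for *NRF2* KO (all genes 0.04). All 4 comparisons share the LL2 WT samples.

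**Figure D1:**
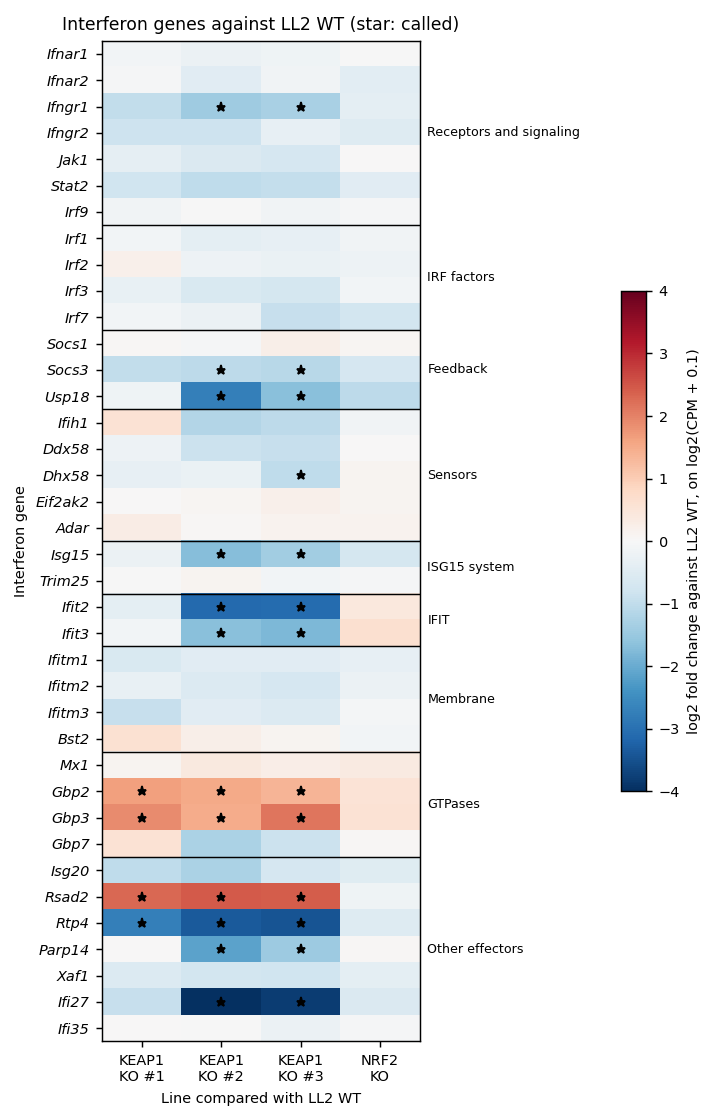
Log2 fold change on log2(CPM + 0.1) against LL2 WT (color) of the 38 tested interferon genes (rows, grouped by role) in each edited line (columns), with a star where a gene was called. *KEAP1* KO #2 holds 12 stars, *KEAP1* KO #3 holds 13, *KEAP1* KO #1 holds 4 and *NRF2* KO holds none.

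The tested genes fell into a few patterns over the 3 clones. In *KEAP1* KO #1, 3 of the 38 genes passed as higher and 6 as lower, against 15.9% and 7.25% of all genes. The counts were 3 and 14 for *KEAP1* KO #2 (17.3% and 14.6% of all genes) and again 3 and 14 for *KEAP1* KO #3 (16.6% and 14.8%). By the limma test against LL2 WT, 3 genes (*Gbp2*, *Gbp3* and *Rsad2*) were higher in every *KEAP1* KO clone (8.72% of all genes) and 5 (*Rtp4*, *Ifngr1*, *Socs3*, *Ifitm2* and *Ifitm3*) were lower in every clone (4.76% of all genes). *Gbp3* and *Rsad2* averaged under 0.2 CPM, the mean that the filter asks for, in LL2 WT and *NRF2* KO. They entered the test through the *KEAP1* KO samples in which they are high, so their place among the higher genes is no evidence of a direction for the set. Another 8 (*Ifi27*, *Ifit2*, *Ifit3*, *Parp14*, *Usp18*, *Isg15*, *Jak1* and *Irf3*) passed as lower in *KEAP1* KO #2 and #3 and did not pass in *KEAP1* KO #1, a pattern shown by 6.42% of all genes. Of these 8, *Ifit3* averaged under 0.2 CPM in both of those clones, and *Usp18* and *Isg15* in *KEAP1* KO #2. These 3 entered the test through lines in which they are higher. Their place among the lower genes is thus no evidence of a direction for the set either. For *Jak1*, *Irf3* and *Isg15* no difference between the 3 clones was shown (limma F test, adjusted p = 0.441, 0.154 and 0.126). All *KEAP1* KO #1 samples of *Jak1* and *Irf3* also lay below every LL2 WT sample. *Ifngr2* passed as lower in *KEAP1* KO #1 and #2 only (0.512% of all genes), and *Dhx58* in *KEAP1* KO #3 only (2.93% of all genes). The other 20 genes did not pass in any clone, as was so for 55.7% of all genes. None passed as higher in one clone and lower in another, and no such pattern was shown by more than 0.0956% of all genes.

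Among the receptors and signaling factors, the interferon-gamma receptor changed most. *Ifngr1*, the ligand-binding chain of that receptor (chr10:19591949-19610229, GRCm38), measured 27.8, 23.5 and 42.2 CPM (LL2 WT), 14.1, 14.3 and 17.1 CPM (*KEAP1* KO #1), 10.5, 11.1 and 12.5 CPM (*KEAP1* KO #2), 12.6, 10.8 and 13.8 CPM (*KEAP1* KO #3), and 21.3, 18.7 and 30.1 CPM (*NRF2* KO). All 9 *KEAP1* KO samples lay below every LL2 WT and every *NRF2* KO sample, while LL2 WT and *NRF2* KO overlapped. Against LL2 WT the log2 fold change was −0.99, −1.41 and −1.29 for clones #1, #2 and #3 (standard error 0.21, limma adjusted p = 0.00491, 0.000281 and 0.000555).

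The second chain of the same receptor, *Ifngr2*, averaged 18.2 ± 4.32 CPM (SD, n = 3) in LL2 WT, 10.08 ± 1.19, 10.22 ± 1.97 and 14.2 ± 1.14 CPM in clones #1, #2 and #3, and 12.8 ± 2.98 CPM in *NRF2* KO. By limma it was lower in clones #1 and #2 (−0.82 in both, adjusted p = 0.0133 and 0.0101). The first of these did not pass without LL2 WT replicate 1 (adjusted p = 0.0586) or without *KEAP1* KO #1 replicate 2 (0.0588), and the second did not pass without *KEAP1* KO #2 replicate 1 (0.0533). The type I receptor chains *Ifnar1* and *Ifnar2* did not pass in any line, with log2 fold changes between −0.45 and −0.01. *Jak1*, a kinase shared by both receptors, averaged 99.4 ± 16.6 CPM (LL2 WT) against 62.1 ± 10.34 CPM (*KEAP1* KO #3), a log2 fold change of −0.68 (limma adjusted p = 0.00901). In *KEAP1* KO #2 *Jak1* was also lower (−0.58, adjusted p = 0.0201), but the limma adjusted p was 0.0819 without LL2 WT replicate 3, 0.0736 without *KEAP1* KO #2 replicate 1 and 0.0820 without replicate 2 of that clone. *Stat2*, a subunit of the transcription factor that acts downstream of the type I receptor, averaged 7.39 ± 1.69 CPM (LL2 WT) against 4.27 ± 1.41, 3.77 ± 1.53 and 4.05 ± 2.27 CPM for the 3 clones, and none of these differences passed (adjusted p = 0.148, 0.0602 and 0.0723). Its DNA-binding partner *Irf9* was near 3 CPM in every line, with line means between 2.88 and 3.16 CPM.

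Of the 4 interferon regulatory factors, *Irf3* passed the test. *Irf3*, which is activated by nucleic acid sensing and drives interferon production, averaged 35.5 ± 1.80 CPM (LL2 WT), 28.5 ± 1.07, 23.5 ± 2.52 and 21.9 ± 3.50 CPM in clones #1, #2 and #3, and 32.9 ± 5.35 CPM in *NRF2* KO. *Irf3* was lower in clones #2 and #3 (−0.60 and −0.70, limma adjusted p = 0.00490 and 0.00171), and neither change reached the fold needed for a call. *Irf1*, *Irf2* and *Irf7* did not pass in any comparison with LL2 WT. *Irf7*, the interferon-inducible amplifier of the type I response, stayed under 0.790 CPM or at that value in every sample.

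Of the 3 negative regulators, *Socs3* passed as lower in all 3 clones, *Usp18* in *KEAP1* KO #2 and #3, and *Socs1* in none. *Socs3*, an inhibitor of JAK signaling (chr11:117966079-117970047), measured 33.1, 26.0 and 59.6 CPM (LL2 WT), 17.7, 17.4 and 21.8 CPM (*KEAP1* KO #1), 16.6, 15.6 and 22.8 CPM (*KEAP1* KO #2), 15.4, 14.6 and 21.9 CPM (*KEAP1* KO #3), and 21.1, 19.3 and 31.6 CPM (*NRF2* KO). LL2 WT replicate 3 was the highest of all samples, and every *KEAP1* KO sample lay below the lowest LL2 WT sample. Its log2 fold change was −0.97, −1.04 and −1.12 for clones #1, #2 and #3 (limma adjusted p = 0.0258, 0.0140 and 0.00911). Without LL2 WT replicate 3 these became −0.64, −0.70 and −0.78 (adjusted p = 0.0975, 0.0543 and 0.0329), and no call was left. In *KEAP1* KO #1 the test also failed without replicate 1 (adjusted p = 0.0725) or replicate 2 of that clone (0.0882), and in *KEAP1* KO #2 without its replicate 1 (0.0523) or 2 (0.0579).

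*Usp18*, the protease that removes ISG15 from proteins and restrains the type I receptor (chr6:121245906-121270917), measured 1.87, 0.922 and 2.77 CPM (LL2 WT), 1.33, 1.32 and 1.84 CPM (*KEAP1* KO #1), 0.117, 0.108 and 0.347 CPM (*KEAP1* KO #2), 0.327, 0.457 and 0.668 CPM (*KEAP1* KO #3), and 0.741, 0.585 and 1.06 CPM (*NRF2* KO). Samples of *KEAP1* KO #2 and #3 all lay below those of LL2 WT and *KEAP1* KO #1, which overlapped each other. Against LL2 WT it was lower by limma for clones #2 (−2.72, standard error 0.42, adjusted p = 0.000341) and #3 (−1.66, adjusted p = 0.00910), and its change for clone #1 was −0.18 (adjusted p = 0.797). In *NRF2* KO it was −1.04 with an adjusted p of 0.379. *Socs1*, another inhibitor of JAK kinases, stayed between 1.76 and 3.43 CPM in all samples and did not pass.

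Of the sensors of foreign nucleic acid, *Dhx58* was the one that passed against LL2 WT. *Dhx58*, a helicase that regulates RIG-I-like sensing (chr11:100694884-100704271), measured 0.785, 0.900 and 1.48 CPM (LL2 WT), 0.982, 0.946 and 0.536 CPM (*KEAP1* KO #1), 0.751, 0.676 and 1.09 CPM (*KEAP1* KO #2), 0.441, 0.447 and 0.455 CPM (*KEAP1* KO #3), and 1.09, 0.918 and 1.299 CPM (*NRF2* KO). The 3 samples of *KEAP1* KO #3 were the lowest of the 15. The log2 fold change there was −1.03 (limma adjusted p = 0.0197), and the test did not pass without LL2 WT replicate 3 (adjusted p = 0.0819), *KEAP1* KO #3 replicate 1 (0.0528) or *KEAP1* KO #3 replicate 2 (0.0532). *Ddx58*, which encodes the RNA sensor RIG-I, averaged 9.20 ± 3.66 CPM (LL2 WT) against 7.71 ± 1.31, 4.76 ± 0.392 and 5.02 ± 2.85 CPM for the 3 clones, with limma adjusted p of 0.748, 0.0878 and 0.0709. All 3 *Ddx58* values of *KEAP1* KO #2, 4.33 to 5.10 CPM, lay below the lowest LL2 WT sample (5.92 CPM). *Ifih1*, which encodes the sensor MDA5, reached at most 0.757 CPM. It did not pass, although its *KEAP1* KO #2 samples, 0.0187 to 0.0806 CPM, lay below every LL2 WT and every *KEAP1* KO #1 sample. The RNA-activated kinase *Eif2ak2* and the RNA-editing enzyme *Adar* had line means of 19.8 to 23.1 CPM and 10.96 to 13.5 CPM, and did not pass.

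*Isg15*, a ubiquitin-like protein that is attached to other proteins during the response (chr4:156199424-156200818), measured 0.995, 1.29 and 0.440 CPM (LL2 WT), 1.41, 0.272 and 0.829 CPM (*KEAP1* KO #1), 0.167, 0.138 and 0.282 CPM (*KEAP1* KO #2), 0.205, 0.207 and 0.378 CPM (*KEAP1* KO #3), and 0.596, 0.356 and 0.516 CPM (*NRF2* KO). *KEAP1* KO #2 and #3 lay below every LL2 WT sample, whereas *KEAP1* KO #1 spread over the whole range of LL2 WT. It was called in *KEAP1* KO #2 (−1.70, standard error 0.50, limma adjusted p = 0.0198) and in *KEAP1* KO #3 (−1.40, adjusted p = 0.0473). Both calls were lost without LL2 WT replicate 1 or 2 and without replicate 1 or 2 of the clone, with adjusted p of 0.0616 to 0.0712 in *KEAP1* KO #2 and of 0.124 to 0.134 in *KEAP1* KO #3. *Trim25*, a ligase acting in RIG-I signaling, had line means of 22.3 to 26.1 CPM and did not pass.

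The IFIT genes, which encode proteins that bind viral RNA, gave the decrease with the lowest adjusted p. *Ifit2* (chr19:34550694-34576419) measured 12.5, 13.5 and 12.16 CPM (LL2 WT), 12.7, 6.87 and 10.17 CPM (*KEAP1* KO #1), 1.08, 1.33 and 1.89 CPM (*KEAP1* KO #2), 1.08, 1.27 and 2.01 CPM (*KEAP1* KO #3), and 17.3, 15.2 and 19.3 CPM (*NRF2* KO). The samples fell into a low pair of clones under 2.02 CPM and 3 lines above 6.8 CPM, with nothing between. It fell by 3.09 on the log2 scale in both *KEAP1* KO #2 and #3 (standard error 0.26, limma adjusted p = 2.65e-06 and 2.44e-06), against −0.40 in *KEAP1* KO #1 and 0.43 in *NRF2* KO, which did not pass. Every *NRF2* KO sample was above every LL2 WT sample.

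*Ifit3*, the neighbor of *Ifit2* (chr19:34583531-34588731), measured 0.249, 0.686 and 0.314 CPM (LL2 WT), 0.494, 0.272 and 0.320 CPM (*KEAP1* KO #1), 0.0625, 0.0630 and 0.0360 CPM (*KEAP1* KO #2), 0.0439, 0.0857 and 0 CPM (*KEAP1* KO #3), and 0.927, 0.640 and 0.453 CPM (*NRF2* KO). All samples of *KEAP1* KO #2 and #3 were under 0.1 CPM, about the level of 3 reads in a sample of average depth, so the difference from LL2 WT is given as at least 4.16-fold lower in each. It was called in both (limma adjusted p = 0.00752 and 0.00450). *Ifit3* shares 61.8% of its 31-base stretches with other genes, chiefly *Ifit3b*, so reads could be split between these copies. *Ifit1*, which was not tested, stayed at or under 0.282 CPM.

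**Figure D2:**
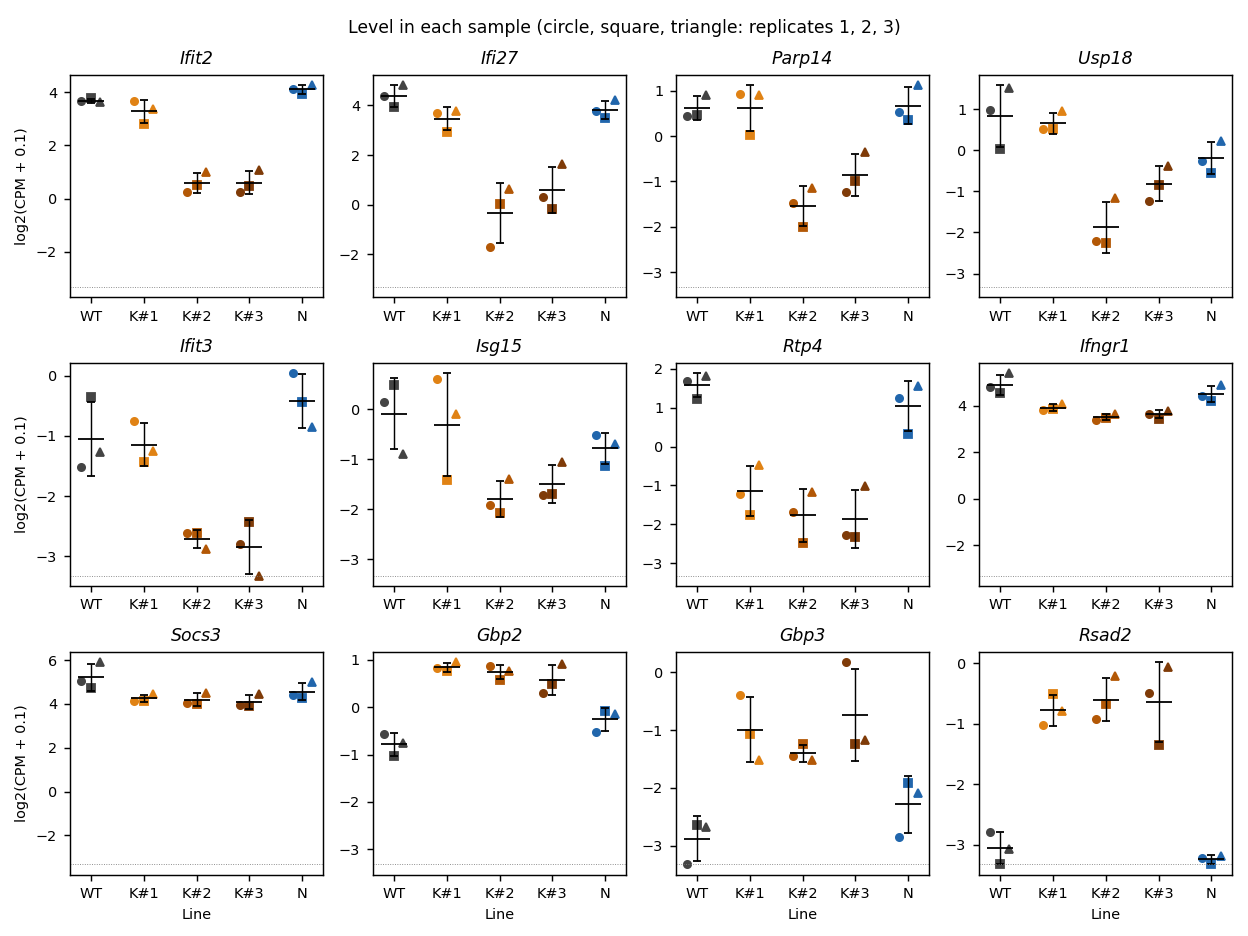
Level of 12 interferon genes in each sample as log2(CPM + 0.1), by line (WT, LL2 WT; K#1 to K#3, *KEAP1* KO clones; N, *NRF2* KO), with the mean and SD of the log2 values over 3 replicates (bars); the dotted line is 0 CPM. *Ifit2*, *Ifi27*, *Parp14* and *Usp18* are lower in K#2 and K#3 than in LL2 WT and K#1, *Rtp4* is lower in all 3 clones, and *Rsad2* and *Gbp2* are higher in all 3.

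*Ifi27*, a small mitochondrial protein and a widely used marker of interferon exposure (chr12:103434211-103440239), had the largest fold decrease of the set. It measured 20.7, 15.2 and 28.6 CPM (LL2 WT), 12.8, 7.49 and 13.7 CPM (*KEAP1* KO #1), 0.208, 0.905 and 1.46 CPM (*KEAP1* KO #2), 1.13, 0.776 and 2.97 CPM (*KEAP1* KO #3), and 13.5, 11.05 and 18.5 CPM (*NRF2* KO). *KEAP1* KO #2 and #3 stayed under 2.98 CPM and did not overlap any other line, and *KEAP1* KO #1 overlapped *NRF2* KO. Its log2 fold changes for clones #2 and #3 were −4.74 and −3.81 (standard error 0.56, limma adjusted p = 4.11e-05 and 0.000225). Those for *KEAP1* KO #1 (−0.92) and *NRF2* KO (−0.56) did not pass.

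*Parp14*, an ADP-ribosyltransferase (chr16:35832874-35871544), measured 1.27, 1.28 and 1.79 CPM (LL2 WT), 1.81, 0.920 and 1.76 CPM (*KEAP1* KO #1), 0.260, 0.150 and 0.353 CPM (*KEAP1* KO #2), 0.327, 0.403 and 0.688 CPM (*KEAP1* KO #3), and 1.35, 1.17 and 2.09 CPM (*NRF2* KO). Again the samples of *KEAP1* KO #2 and #3 lay below all others. Clones #2 and #3 differed from LL2 WT by −2.15 and −1.46 on the log2 scale (limma adjusted p = 0.000590 and 0.00739), and clone #1 by 0.01.

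*Rtp4*, an interferon-induced chaperone of receptor transport (chr16:23520291-23614222), was low in all 3 clones. It measured 3.11, 2.24 and 3.41 CPM (LL2 WT), 0.332, 0.195 and 0.617 CPM (*KEAP1* KO #1), 0.213, 0.0781 and 0.349 CPM (*KEAP1* KO #2), 0.108, 0.0996 and 0.397 CPM (*KEAP1* KO #3), and 2.27, 1.15 and 2.87 CPM (*NRF2* KO). No *KEAP1* KO sample reached the lowest LL2 WT or *NRF2* KO sample. The log2 fold change was −2.73, −3.35 and −3.44 for clones #1, #2 and #3 (standard error 0.49, limma adjusted p = 0.00167, 0.000229 and 0.000177), and −0.53 for *NRF2* KO, which did not pass.

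The membrane proteins that block viral entry were by far the most abundant members. *Ifitm3* averaged 525 ± 58.3 CPM (LL2 WT), 277 ± 25.3, 384 ± 58.2 and 361 ± 14.7 CPM in clones #1, #2 and #3, and 497 ± 21.6 CPM in *NRF2* KO, and was lower in all 3 clones (−0.92, −0.45 and −0.53, with limma adjusted p of 0.000124, 0.00911 and 0.00335). *Ifitm2* averaged 605 ± 48.0 CPM (LL2 WT), 492 ± 35.5, 414 ± 18.8 and 376 ± 20.1 CPM in clones #1, #2 and #3, and 509 ± 33.7 CPM in *NRF2* KO. This gene was lower in *KEAP1* KO #2 (−0.55, limma adjusted p = 0.000443) and #3 (−0.69, adjusted p = 7.06e-05), and in *KEAP1* KO #1 (−0.30, adjusted p = 0.0258), where the test no longer passed once LL2 WT replicate 1 (0.0994) or replicate 2 of the clone (0.12) was left out. The order of the clones thus differed: *Ifitm3* was lowest in *KEAP1* KO #1 and *Ifitm2* in *KEAP1* KO #3. *Ifitm2* shares 55.5% of its 31-base stretches with other annotated transcripts, and *Ifitm3* 20.5%. *Ifitm1* and the virus tether *Bst2* did not pass, with line means of 88.3 to 139 CPM and 18.5 to 30.2 CPM.

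A few members moved the other way. *Rsad2* encodes viperin, an antiviral enzyme of the radical SAM family (chr12:26442746-26456452). It measured 0.0445, 0 and 0.0192 CPM (LL2 WT), 0.393, 0.602 and 0.477 CPM (*KEAP1* KO #1), 0.430, 0.525 and 0.761 CPM (*KEAP1* KO #2), 0.610, 0.292 and 0.857 CPM (*KEAP1* KO #3), and 0.00764, 0 and 0.0103 CPM (*NRF2* KO). LL2 WT and *NRF2* KO lay under 0.1 CPM throughout, below each of the 9 *KEAP1* KO samples. Relative to LL2 WT it was higher by at least 4.91-fold, 5.72-fold and 5.86-fold in clones #1, #2 and #3 (limma adjusted p = 0.000946, 0.000323 and 0.000349).

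The guanylate-binding proteins are GTPases that attack the membranes of intracellular pathogens. The genes *Gbp2*, *Gbp3* and *Gbp7* of the set lie close together on chromosome 3. *Gbp2* (chr3:142620602-142638008) measured 0.580, 0.386 and 0.489 CPM (LL2 WT), 1.67, 1.60 and 1.83 CPM (*KEAP1* KO #1), 1.72, 1.40 and 1.61 CPM (*KEAP1* KO #2), 1.14, 1.305 and 1.80 CPM (*KEAP1* KO #3), and 0.592, 0.845 and 0.805 CPM (*NRF2* KO). Every *KEAP1* KO sample was above every other sample. Its log2 fold change was 1.63, 1.53 and 1.36 in the 3 clones (standard error 0.23, limma adjusted p = 0.000359, 0.000334 and 0.000785) and 0.53 in *NRF2* KO, which did not pass although all 3 of its samples exceeded all LL2 WT samples.

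*Gbp3* (chr3:142560026-142573209) measured 0, 0.0611 and 0.0565 CPM (LL2 WT), 0.664, 0.376 and 0.250 CPM (*KEAP1* KO #1), 0.268, 0.323 and 0.248 CPM (*KEAP1* KO #2), 1.03, 0.324 and 0.344 CPM (*KEAP1* KO #3), and 0.0390, 0.164 and 0.135 CPM (*NRF2* KO). No *KEAP1* KO sample overlapped another line, all being higher, with *KEAP1* KO #3 replicate 1, the sample of lowest depth, the highest. Relative to LL2 WT it was higher by at least 4.30-fold, 2.80-fold and 5.64-fold in the 3 clones (limma adjusted p = 0.0105, 0.0267 and 0.00345). Without *KEAP1* KO #3 replicate 1 the last of these bounds was 3.34-fold. In *KEAP1* KO #2 it did not pass without LL2 WT replicate 1 (adjusted p = 0.0909) or without replicate 1 (0.0661) or 2 (0.0835) of the clone. The neighboring *Gbp7* measured 0.134, 0.246 and 0.630 CPM (LL2 WT), 0.570, 0.305 and 0.643 CPM (*KEAP1* KO #1), 0.0525, 0.0560 and 0.0829 CPM (*KEAP1* KO #2), 0.0430, 0.0715 and 0.298 CPM (*KEAP1* KO #3), and 0.145, 0.437 and 0.382 CPM (*NRF2* KO). It did not share the pattern of *Gbp2* and *Gbp3*, and no difference from LL2 WT passed. *Mx1*, a dynamin-like GTPase, stayed between 1.83 and 3.37 CPM in all samples.

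The remaining effectors did not pass in any line. *Isg20*, an RNA exonuclease, ranged from 9.68 to 36.2 CPM within LL2 WT alone, with replicate 3 highest, and averaged 9.06, 7.54 and 11.6 CPM in the 3 clones. *Xaf1*, a pro-apoptotic protein, had line means of 0.609 to 1.28 CPM, and *Ifi35* had line means of 13.7 to 16.2 CPM.

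The 3 *KEAP1* KO clones carried the same edited gene, so the interferon genes were also compared between them. In a limma F test over the 3 clones, 5 of the 38 genes were called (*Usp18*, *Ifit2*, *Ifit3*, *Parp14* and *Ifi27*), where 5.58% of all genes were called. All 5 were lower in *KEAP1* KO #2 and #3 than in *KEAP1* KO #1, with no overlap between samples. *KEAP1* KO #2 was below *KEAP1* KO #1 by 2.70 on the log2 scale for *Ifit2* (SE 0.26), 3.82 for *Ifi27* (SE 0.56), 2.54 for *Usp18* (SE 0.42) and 2.16 for *Parp14* (SE 0.36). With *Ifit3* (at least 3.62-fold lower) and *Gbp7* (at least 5.06-fold lower) this made 6 genes called lower and none higher, where 4.58% of all genes were called (1.79% higher and 2.79% lower). These 6 also made up all genes of the set that passed as lower (7.15% of all genes), and *Ifitm3* alone passed as higher, by 0.47 (3.94% of all genes). *Ifit3* and *Gbp7* averaged under 0.2 CPM in *KEAP1* KO #2 and #3, and *Usp18* in *KEAP1* KO #2. They entered the test through lines in which they are higher, so their calls are no evidence of a direction for the set. *KEAP1* KO #3 was below *KEAP1* KO #1 for 5 called genes, where 4.63% of all genes were called (2.03% higher and 2.60% lower), by 2.69 for *Ifit2*, 2.89 for *Ifi27*, 1.48 for *Usp18* and 1.47 for *Parp14*, and at least 3.62-fold for *Ifit3*. With *Ifitm2* (−0.39) 6 passed as lower (7.70% of all genes), and *Ifitm3* again passed as higher, by 0.39 (4.55% of all genes). Several calls against *KEAP1* KO #1 were lost when a sample of either clone was left out. *Ifit2* and *Ifi27* kept both of theirs, and *Usp18* and *Parp14* kept that of *KEAP1* KO #2. For *KEAP1* KO #2, *Ifit3* lost its call in all cases but *KEAP1* KO #1 replicate 2 (limma adjusted p 0.0592 to 0.102), and so did *Gbp7* (0.0627 to 0.121). For *KEAP1* KO #3, *Usp18* lost it in all cases but replicate 3 of that clone (0.0739 to 0.133). *Parp14* there lost it without *KEAP1* KO #1 replicate 1 or 3 and without *KEAP1* KO #3 replicate 1 or 2 (0.0633 to 0.0742), and *Ifit3* lost it without *KEAP1* KO #1 replicate 1 (0.0665). The difference of *Ifitm3* did not pass without *KEAP1* KO #1 replicate 2 or *KEAP1* KO #2 replicate 3 in the one clone (0.0826 and 0.0632), nor without any single sample in the other (0.0719 to 0.16), and that of *Ifitm2* did not pass without replicate 1 of either clone (0.0521 and 0.0589). *Isg15*, *Irf3* and *Jak1* did not pass the F test (adjusted p = 0.126, 0.154 and 0.441). Their decreases in *KEAP1* KO #2 and #3 were thus not shown to differ from *KEAP1* KO #1. *Keap1* itself was lower in clones #2 and #3 than in clone #1 (−1.12 and −1.11, limma adjusted p = 0.00497 and 0.00498), and whether this bears on the interferon genes was not tested. Some markers of other cell types moved with these clones too. The leukocyte markers *Cd68* (2.202 and 2.86) and *Flt3* (1.29 and 1.22) were called higher than LL2 WT in *KEAP1* KO #2 and #3 on the log2 scale, and the endothelial marker *Cdh5* was at least 8.19-fold and 12.5-fold higher (limma adjusted p = 0.000338 and 8.87e-05). The other tested leukocyte marker, *Csf1r*, did not pass in *KEAP1* KO #2 or #3 (limma adjusted p = 0.176 and 0.447). Nor did the other endothelial marker, *Pecam1* (0.0512 and 0.105), which averaged highest in *NRF2* KO (5.54 CPM). *Flt3* and *Cdh5* reached at most 0.506 and 1.54 CPM, and *Ptprc* 0.192 CPM. The keratin *Krt8* was higher in *KEAP1* KO #2 and #3 than in *KEAP1* KO #1 (1.198 and 0.87). The part of these markers in the interferon gene differences was not tested. Between *KEAP1* KO #3 and #2, none of the 38 genes passed the limma test, 4 (and 8.22% of all genes) had an unadjusted p under 0.05, and 0.485% of all genes were called (0.259% higher and 0.225% lower in #3), with 0.375% passing as higher and 0.389% as lower.

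**Figure D3:**
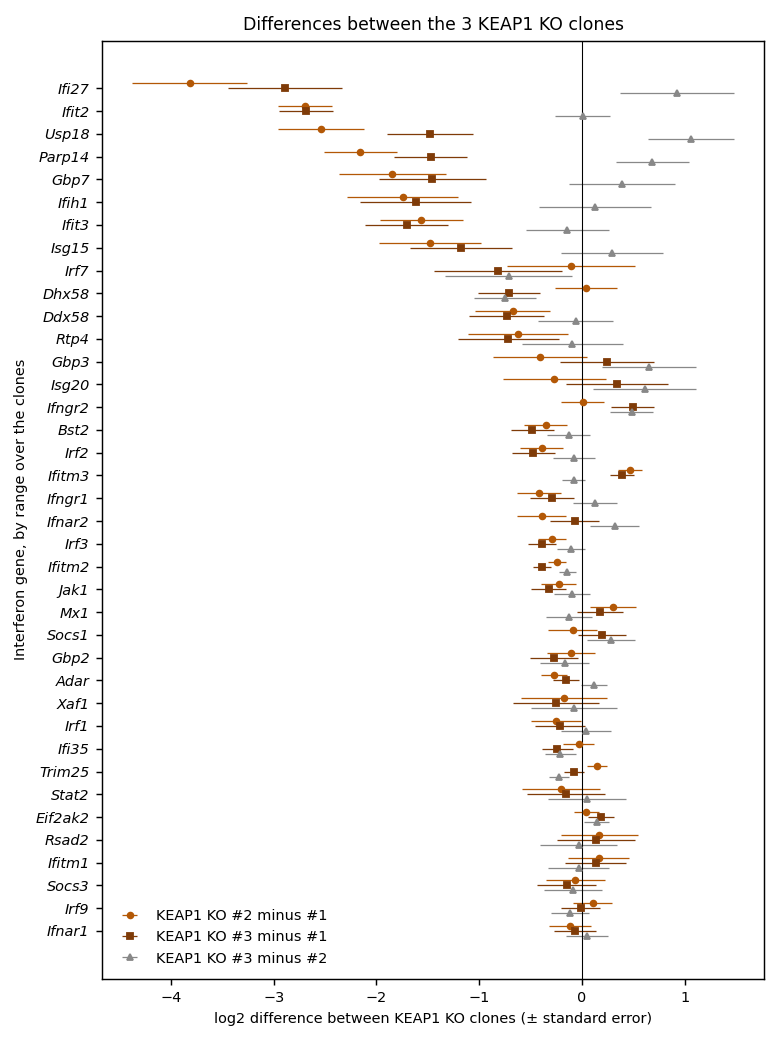
Log2 differences between pairs of *KEAP1* KO clones (points, with standard errors) for the 38 tested interferon genes, ordered by their range over the clones. *Ifi27*, *Ifit2*, *Usp18* and *Parp14* lie between −1.47 and −3.82 for #2 minus #1 and #3 minus #1, and differences between #3 and #2 scatter between −0.75 and 1.06.

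The *KEAP1* KO clones together were compared with *NRF2* KO, the opposite genetic state. Of the 38 genes, 7 were called, 2 higher in the clones and 5 lower, where 9.94% of all genes were called (5.19% higher and 4.75% lower). *Rsad2* measured at least 5.50-fold higher than in *NRF2* KO (limma adjusted p = 4.31e-05). *Gbp3* was higher by 1.24 on the log2 scale (adjusted p = 0.0266), a call lost without *NRF2* KO replicate 1 (adjusted p = 0.153) or replicate 3 (0.0579). The lower genes were *Rtp4* (−2.64, limma adjusted p = 0.000301), *Ifit2* (−2.63, adjusted p = 1.34e-06), *Ifi27* (−2.59), *Ifit3* (−1.82) and *Parp14* (−1.26). For *Rtp4* and *Ifit2* all 9 *KEAP1* KO samples lay below all 3 *NRF2* KO samples. For *Ifi27*, *Ifit3* and *Parp14* the samples overlapped, through those of *KEAP1* KO #1. *Rsad2* and *Gbp3* averaged under 0.2 CPM in LL2 WT and *NRF2* KO and entered the test through the *KEAP1* KO samples. *Ifit3* averaged under 0.2 CPM in *KEAP1* KO #2 and #3 and entered through lines in which it is higher. The calls of these genes are no evidence of a direction for the set. The line *NRF2* KO is shared by this comparison and by its own comparison with LL2 WT.

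A wider list of 91 interferon pathway genes outside the set was read in the same way. It held 90 genes present in the table, of which 58 were tested. None of its 9 interferon ligand genes reached the filter. The genes called higher and lower numbered 4 and 4 (*KEAP1* KO #1), 7 and 21 (*KEAP1* KO #2), 6 and 17 (*KEAP1* KO #3), and 0 and 2 (*NRF2* KO). In the 3 clones 4.55%, 5.94% and 6.09% of all genes were called higher and 3.99%, 7.75% and 7.34% lower. For *NRF2* KO these shares were 0.0887% and 0.375%. Median log2 fold changes were −0.04, −0.77, −0.46 and −0.15 for the 4 lines in the same order. Some called genes averaged under 0.2 CPM where they are lower, such as *Cgas* and *Tlr7* in LL2 WT, *Irf8* in all 3 clones, and *Sp140* and *Slfn2* in *NRF2* KO. They entered the test through lines in which they are higher, so their calls are no evidence of a direction for the list. As 6.42% of all genes did, 14 of the 58 genes passed as lower in *KEAP1* KO #2 and #3 and did not pass in *KEAP1* KO #1, among them *Parp12*, *Parp9*, *Dtx3l*, *Ube2l6*, *Herc6*, *Nmi* and *Slfn9*. Of these named genes, *Parp9* was not shown to differ between the 3 clones (limma F test, adjusted p = 0.105).

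Named examples came from the largest changes of this list. *Tlr7*, an endosomal sensor of single-stranded RNA, measured 0.152, 0.305 and 0.0209 CPM (LL2 WT), and its 9 *KEAP1* KO samples ranged from 1.31 to 4.80 CPM, all above LL2 WT and *NRF2* KO. Its log2 fold change was 3.62, 4.19 and 3.27 in the 3 clones (limma adjusted p = 0.000164, 2.56e-05 and 0.000182). *Tlr7* averaged under 0.2 CPM in LL2 WT and *NRF2* KO, so it too entered the test through the *KEAP1* KO samples. *Irf8*, a factor best known from myeloid and B cells, measured 2.03, 0.938 and 3.298 CPM (LL2 WT) and at most 0.234 CPM in any *KEAP1* KO sample, a log2 fold change of −3.03, −3.40 and −3.53 (limma adjusted p = 0.00100, 0.000258 and 0.000184). It averaged under 0.2 CPM in all 3 clones, so it entered the test through LL2 WT and *NRF2* KO, in which it is higher. *Sp100*, a nuclear body protein, was lower in all 3 clones (−2.15, −2.70 and −2.90). *Sp140* was lower in all 3 clones and in *NRF2* KO, where it measured at least 14.6-fold lower than LL2 WT (limma adjusted p = 0.0210). That bound was 7.197-fold without LL2 WT replicate 3, the highest of the 3. *Sp140* averaged under 0.2 CPM in *KEAP1* KO #1 and #3 and in *NRF2* KO, and entered the test through lines in which it is higher. *Parp12*, an ADP-ribosyltransferase, was lower in *KEAP1* KO #2 (−1.78) and #3 (−2.46). Among the oligoadenylate synthetases, enzymes activated by double-stranded RNA, *Oas1c* was lower (−1.80 and −2.30) and *Oas3* higher (1.85 and 1.40) in the same pair of clones. *Oas1c* averaged under 0.2 CPM in *KEAP1* KO #3.

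**Figure D4:**
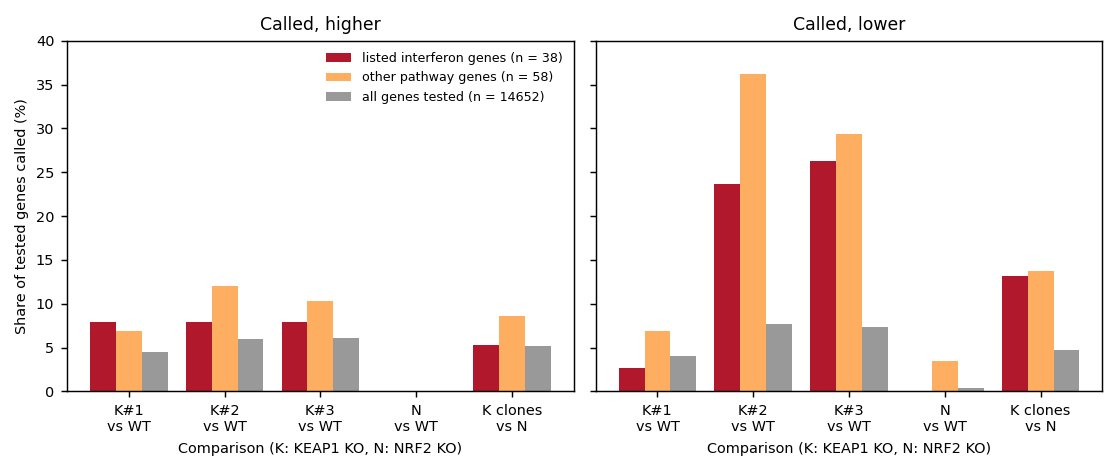
Share of tested genes called higher (left) and lower (right) in each comparison, for the 38 interferon genes of the set, the 58 other pathway genes and all 14652 genes tested. In K#2 and K#3 against LL2 WT the interferon genes called lower made up 23.7% and 26.3% of the set, against 7.75% and 7.34% of all genes.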

How the data were processed

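The authors deposited CPM per gene and sample, made by pseudo-alignment with kallisto and summed to gene symbols. The study's methods name the GRCm38.p6 transcripts, and the submitters' processing notes name GRCm39. The deposited CPM are fractional and sum to 998941 to 999306 per sample over named genes (unnamed entries held 0.0214% to 0.0491%). They carry no read counts. The study's methods give an average depth and not that of each sample, so precision per sample is not known and no count test was run. All 15 samples were used.

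Members and lists were chosen with earlier results of these data known. A mean per line was fitted to log2(CPM + 0.1) in limma 3.58.1 (R 4.3.3) with empirical Bayes moderation and a trend, and p-values were adjusted over all 14652 genes whose CPM summed to 3 or more. A fold against samples all at or under 0.1 CPM is a lower bound. Genes called in a comparison of the set are given in every sample, and the rest by line means or ranges. Of the other pathway genes, those with the largest changes are named. The replicates are labelled biologic, and the labels do not say how the cultures were separated, so p-values measure the spread between these samples. The fit was tested on simulated data. Positions are from GENCODE vM21 (GRCm38) and promoters from RefSeq. Alternatives were other pseudocounts, filters, scalings and batch terms, and leaving out single samples. Leaving out replicate 3 of every line was added after seeing the data. Python 3.11.15 with pandas 2.3.3 and matplotlib 3.10.9 was used.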

Additional observations from a re-analysis of the deposited data

Results flagged for a closer look

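Several interferon genes differed between clones that carry the same edited gene, by a limma test of the difference between 2 clones. *KEAP1* KO #2 minus *KEAP1* KO #1 was −2.54 for *Usp18*, −2.70 for *Ifit2*, −2.16 for *Parp14* and −3.82 for *Ifi27* on the log2 scale, and *Ifit3* and *Gbp7* were at least 3.62-fold and 5.06-fold lower. *KEAP1* KO #3 minus *KEAP1* KO #1 was −1.48 for *Usp18*, −2.69 for *Ifit2*, −1.47 for *Parp14* and −2.89 for *Ifi27*, and *Ifit3* was at least 3.62-fold lower. Both sets of differences share the *KEAP1* KO #1 samples. Over all genes tested, 4.58% were called for #2 against #1 and 4.63% for #3 against #1. *Ifit3*, *Gbp7* and *Usp18* entered the test through lines in which they are higher, so their calls are no evidence of a direction for the set. The calls of *Ifit3* and *Gbp7* in #2, and of *Usp18*, *Parp14* and *Ifit3* in #3, were lost when certain single samples were left out. With 3 samples per line, single samples were not screened as outliers.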

How the results depend on the processing

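A call at low CPM depends on the pseudocount and on the filter. With a pseudocount of 1 CPM the number of interferon genes called was 1 in *KEAP1* KO #1, 6 in #2, 5 in #3, 3 for the clones against *NRF2* KO, 3 among the clones and 7 among the 5 lines (4, 12, 13, 7, 5 and 12 in the main fit). The last count is from a limma F test over the 5 lines, which called 17.6% of all genes in the main fit. The share of all genes called was not computed for the alternatives. With 0.5 CPM it was 2 in *KEAP1* KO #1, 8 in #3 and 4 against *NRF2* KO. When genes averaging under 1 CPM were removed, it was 2, 7, 7, 4, 3 and 7. Median-ratio rescaling and quantile normalization each gave 7 in *KEAP1* KO #1. Leaving out single samples gave 4 to 8, 9 to 15, 11 to 16, 6 to 8, 4 to 6 and 10 to 15. *NRF2* KO against LL2 WT gave 0 under all alternatives run. The replicate number did not pair the samples by the rule used (r over 0.1 for every number in 2 of 10 pairs of lines), although same-numbered samples had a median r of 0.276 against −0.192 for different numbers, and those of replicate 3 a median of 0.461 (lowest 0.422). With a replicate block the counts were 5, 15, 13, 0, 7, 7 and 17, *NRF2* KO being the fourth. Of 70 gene and comparison pairs that passed, those between clones included, refitted 1177 times in all, 1037 refits kept the call or pass, 140 lost it and 0 reversed. *Ifit2*, *Ifi27*, *Rtp4* and *Ifngr1* kept theirs in every one of these refits.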
